A study of Mus musculus with 18 samples.

Results

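Heat shock chaperones of the cytosol and mitochondria, with the cochaperones and transcription factors that work with them, were followed in mouse hearts 7 days after surgery. The group holds 41 genes named by symbol, and all 41 were found among the 25731 symbols of the count table and passed the filter on low counts that left 15088 genes for testing. The symbols were chosen by a list drawn up with the p values of ischemia-reperfusion against sham hearts known, among which that of Fkbp4 was one of the smallest. The values of that comparison are therefore given as a description: no p of a member is printed for it, and its counts support nothing. Groups of 6 mice, all labelled as adult male wild-type C57BL/6, were compared. The groups were ischemia-reperfusion with decursin (IR+Decursin), ischemia-reperfusion alone (IR), and sham surgery (SHAM). Counts of sex-linked genes, given below, went against the male label in IR 3, IR 4 and IR+Decursin 2, and in no SHAM library. Decursin is a pyranocoumarin from the root of Angelica gigas. The sources used here do not give its dose, route or vehicle, or how the surgery was done. RNA came from heart tissue, and which part of the heart was sampled is not stated, so each library can hold RNA of several cell types.

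In IR hearts 37 of the 41 genes had a lower mean than in SHAM hearts, with Fkbp4, Hspb3, Hsph1, Dnaja3 and Hspb6 lowest. Of all genes tested, 49.9% had a higher mean there. This comparison was used in choosing the genes, so the count is a description. In IR+Decursin hearts 13 of the 41 genes were still below SHAM hearts by test, where 11.8% of all genes were. The same SHAM libraries entered the choice of the genes, so this count is a description too. Among the 13 were Fkbp4, the mitochondrial chaperonin pair Hspd1 and Hspe1, mitochondrial Hspa9 and Dnaja3, and Hspb3. Against IR hearts, 34 of the 41 genes had higher means in IR+Decursin hearts, where 47% of all genes did. No member passed the test, and neither did any other gene tested. The IR libraries also entered the choice of the genes, so the count of 34 is a description. The stress-inducible genes Hspa1a, Hspa1b, Hsph1 and Hsp90aa1 followed another pattern: they were highest in SHAM 5, and for Hsph1 and Hsp90aa1 SHAM 2 was also above every IR+Decursin and IR library.

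Chaperones help other proteins reach and keep their fold. HSP70 proteins bind exposed stretches of unfolded chains in a cycle driven by ATP, in which J-domain proteins deliver the client and start hydrolysis, and HSP110 and BAG proteins release the nucleotide. Clients such as kinases and steroid receptors pass on to HSP90, whose cycle is steered by cochaperones. Small heat shock proteins hold unfolded chains without ATP, and several of them are abundant in heart and skeletal muscle. In mitochondria, HSP60 and HSP10 form a folding chamber for imported proteins. Heat shock factor 1 (Hsf1) turns on the inducible members when unfolded protein accumulates, by binding inverted repeats of GAA in their promoters.

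Because several members moved together in single libraries, their promoters were searched for those repeats. The 250 bases before the start of transcription were available for 35 of the 41 genes in RefSeq on build GRCm38.p6. The count table carries no coordinates and its reads were aligned to GRCm39, so positions refer only to the RefSeq table. The longer motif was GAANNTTCNNGAA or TTCNNGAANNTTC, each the reverse complement of the other. It was found in 3 of 35 members (8.57%), Hspd1, Hspe1 and Dnajb6, against 139 of 27025 genes with a promoter (0.514%). The shorter motif, GAANNTTC or TTCNNGAA, is contained in the longer one and reads the same on both strands. It was found in 14 of 35 members (40%), against 3932 of 27025 genes (14.5%). Of the genes described below as high in the same single libraries, Hspa1a, Hspa1b, Hsph1 and Dnaja1 held only the shorter motif. Hsp90aa1 was among the genes without an available promoter. A match describes letters and is no evidence of binding. Sites of 6 genes whose levels are described below are shown with the motif in capitals, each in the direction of its gene. Hspd1 and Hspe1 lie head to head and share 1 stretch, read from opposite strands, so the counts above hold this stretch for both genes.
Hspd1, chr1:55088047-55088083, minus strand: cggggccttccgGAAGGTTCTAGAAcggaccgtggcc
Hspe1, chr1:55088047-55088083, plus strand: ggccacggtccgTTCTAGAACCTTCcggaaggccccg
Fkbp4, chr6:128438788-128438819, minus strand: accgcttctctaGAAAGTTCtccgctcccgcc
Hsph1, chr5:149636350-149636381, minus strand: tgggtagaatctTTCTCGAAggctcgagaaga
Hspa1a, chr17:34972241-34972272, minus strand: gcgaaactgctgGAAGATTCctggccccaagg
Hspa1b, chr17:34959323-34959354, minus strand: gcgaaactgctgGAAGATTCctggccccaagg

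The promoters of Hspa1a and Hspa1b had the same base at 247 of 250 positions. These genes encode the inducible HSP70 and are near-identical copies, so how the authors' counting shared reads between them is uncertain. Their counts are also given as a sum below.

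Libraries held between 27525876 and 34974692 counts over 18435 to 20389 genes. Levels between libraries are CPM, counts scaled to a common library size with TMM factors, and levels between genes are the deposited FPKM values, which divide by gene length. Each batch named in the labels holds 1 group, so batch and group cannot be told apart. IR 3, IR 4 and IR+Decursin 2 held 14072 to 14232 counts of Xist and 0 of the Y-linked Ddx3y, against the male label, whereas the other 15 libraries held at most 8 of Xist. In IR+Decursin 6 the gene model Gm26917 took 7.54% of counts. Fewer cells of a type and less RNA per cell cannot be told apart in tissue RNA. The summed CPM of 15 cardiomyocyte markers had a median of 74757 in IR+Decursin (57117 to 95033), 59346 in IR (49818 to 67342) and 95657 in SHAM hearts (90467 to 104967). Of these markers 7 were lower and 0 higher by test in IR+Decursin against SHAM, beside 11.8% and 17.5% of all genes. Against IR 0 were called, with a median log2 difference of 0.32. The 10 fibroblast markers summed to 9642 CPM in IR+Decursin (3110 to 12637), 9966 CPM in IR (9573 to 13071) and 2834 CPM in SHAM hearts (2575 to 3208). The IR+Decursin libraries were split, with 3873 CPM in IR+Decursin 5, 3110 CPM in IR+Decursin 6 and 7475 to 12637 CPM in the others. IR+Decursin 5 and 6 were among the 2 highest of their group for 25 and 18 of the 41 chaperone genes. IR+Decursin 3, with a fibroblast sum of 11810 CPM, was so for 21. The 12 macrophage markers summed to 1511 CPM in IR+Decursin (687 to 1954), 1897 CPM in IR (1492 to 3018) and 622 CPM in SHAM hearts (481 to 671). No marker of these lists was at 0 in a group, and the part of cell make-up in the chaperone values was not tested.

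**Figure D1:**
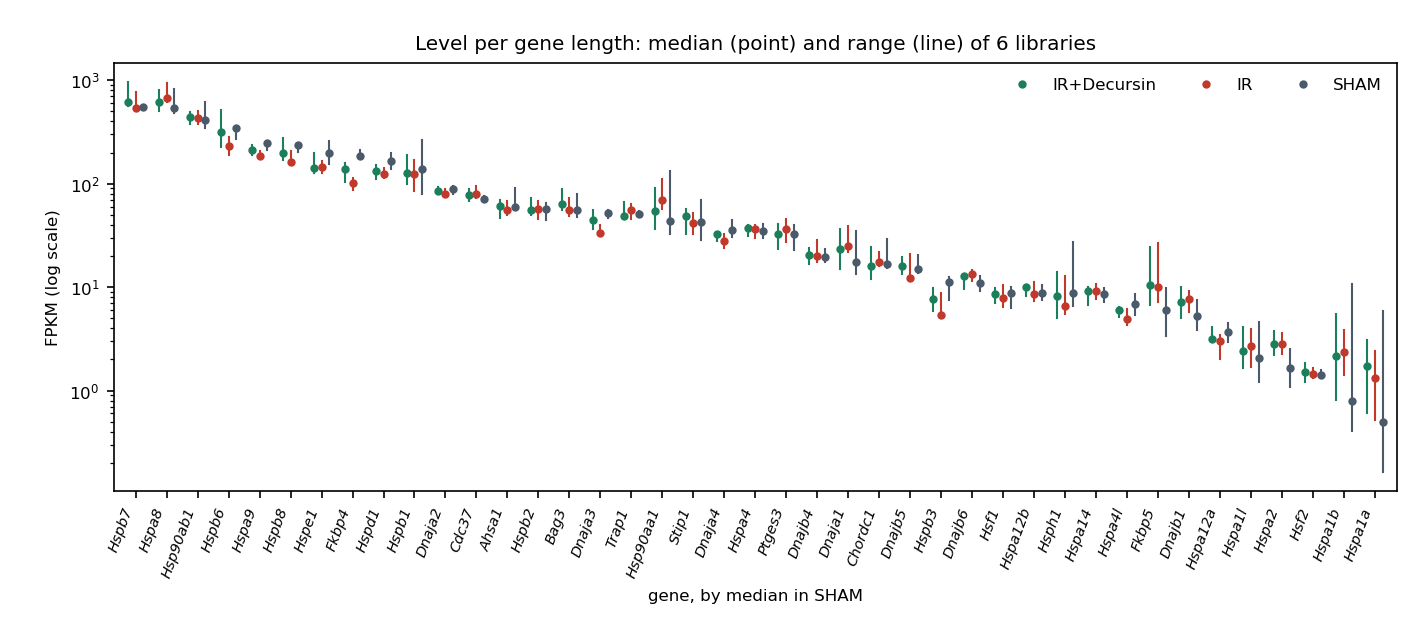
Median FPKM (points) and range over 6 libraries (lines) of the 41 genes on a log scale, ordered by the SHAM median, with IR+Decursin left, IR in the middle and SHAM right for each gene. The SHAM medians run from 546 for Hspb7 to 0.492 for Hspa1a; FPKM is scaled to the library total, so heights between groups are shifted relative to the CPM values.

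Per gene length, the muscle small heat shock protein gene Hspb7 and the constitutive HSP70 gene Hspa8 led in SHAM hearts, each with a median of 546 FPKM. Hsp90ab1, the constitutive cytosolic HSP90, followed with 414 FPKM, then Hspb6 with 343, Hspa9 with 246 and Hspb8 with 237. The inducible HSP70 genes were at the bottom of the order, with 0.788 FPKM for Hspa1b and 0.492 for Hspa1a. The FPKM ratio of the HSP90 pair, inducible Hsp90aa1 over constitutive Hsp90ab1, had a median of 0.124 in IR+Decursin, 0.15 in IR and 0.115 in SHAM hearts, with overlapping ranges.

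Among HSP90 and its cochaperones, Fkbp4 stood furthest below SHAM hearts. It encodes FKBP52, an immunophilin that binds HSP90 and favours the transport of steroid receptors to the nucleus. Fkbp4 had 202, 316, 313, 232, 306 and 358 CPM in IR+Decursin libraries 1 to 6, 226, 188, 212, 188, 227 and 179 CPM in IR libraries, and 480, 460, 458, 467, 510 and 430 CPM in SHAM libraries. Every IR+Decursin and every IR library lay below every SHAM library, and 5 of 6 IR+Decursin libraries lay above every IR library, the exception being IR+Decursin 1. The log2 fold change was -1.20 ± 0.12 (SE) for IR against SHAM. It was -0.70 ± 0.11 for IR+Decursin against SHAM (edgeR quasi-likelihood test, adjusted p = 0.000438). For IR+Decursin against IR it was 0.50 ± 0.11, which missed the threshold of 0.05 (adjusted p = 0.0883).

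Fkbp5 encodes FKBP51, the immunophilin that competes with FKBP52 on HSP90 and whose gene is itself switched on by glucocorticoid receptor. It lay the other way in the mean. It had a lowest, median and highest level of 24.3, 36.9 and 91.3 CPM in IR+Decursin, 25.1, 37.5 and 97.0 CPM in IR, and 14.2, 26.9 and 41.8 CPM in SHAM hearts. The groups overlapped, and single libraries stood out, IR+Decursin 3 and IR 6. Its log2 difference was 0.75 ± 0.39 for IR+Decursin against SHAM (adjusted p = 0.169), 0.03 ± 0.39 for IR+Decursin against IR (adjusted p = 0.975) and 0.72 ± 0.39 for IR against SHAM. The FPKM ratio of Fkbp4 over Fkbp5 within a library had a median of 11.2 in IR+Decursin (6.06 to 23.0), 10.7 in IR (3.27 to 14.9) and 32.5 in SHAM hearts (20.3 to 58.1). All IR ratios lay below all SHAM ratios, whereas the ranges of IR+Decursin and SHAM overlapped. Fkbp4 had one of the smallest p values in the comparison behind the choice of genes, so the separation of these ratios is a description.

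Of the other HSP90 partners, Ahsa1 stimulates the ATPase of HSP90 and Chordc1 is a zinc-binding cochaperone. Both fell in IR+Decursin against SHAM hearts, by 0.43 for Ahsa1 and by 0.49 for Chordc1 on the log2 scale (adjusted p = 0.0138 and 0.0308). Ahsa1 had 78.3, 90.6 and 107 CPM as lowest, median and highest in IR+Decursin, 72.1, 84.1 and 98.2 CPM in IR, and 99.6, 111 and 169 CPM in SHAM hearts. Its highest SHAM values were in SHAM 2 and SHAM 5, and without both the IR+Decursin difference did not pass (-0.22, adjusted p = 0.111, with a range of 0.00516 to 0.236 over the 27 alternatives). Leaving out both was added after they were seen to be high for many members. For genes highest in them this sets the direction, so the p values without both are a description. Chordc1 had 29.2, 33.3 and 47.5 CPM in IR+Decursin, 31.6, 35.3 and 45.4 CPM in IR, and 37.9, 41.4 and 69.4 CPM in SHAM hearts. Its SHAM values were also highest in SHAM 5 and SHAM 2, with 42.4 CPM next, and its call ended without both (-0.19, adjusted p = 0.263) and without the 3 libraries with Xist (-0.45, adjusted p = 0.0818). Cdc37, which loads kinases onto HSP90, had 109, 139 and 150 CPM (lowest, median, highest) in IR+Decursin, 118, 129 and 143 CPM in IR, and 131, 141 and 151 CPM in SHAM hearts. Ptges3, the p23 cochaperone that closes the cycle, had 53.1, 60.0 and 71.3 CPM in IR+Decursin, 54.2, 61.2 and 82.7 CPM in IR, and 52.8, 71.0 and 84.5 CPM in SHAM hearts. All groups overlapped for both genes. Stip1, which links HSP70 to HSP90, and Trap1, the mitochondrial HSP90, were not called in IR+Decursin against either group. Without the 3 libraries with Xist, Trap1 was called lower in IR+Decursin against SHAM (adjusted p = 0.0346). It was also called in 1 of the 18 fits without a single library. Over the 27 alternatives its adjusted p in that comparison ran from 0.0289 to 0.991.

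Within the HSP70 family the mitochondrial and the inducible members differed. Hspa9 encodes mortalin, the mitochondrial HSP70 that pulls proteins through the import channel and folds them. Its level was 517, 610 and 775 CPM (lowest, median, highest) in IR+Decursin, 474, 515 and 582 CPM in IR, and 740, 825 and 915 CPM in SHAM hearts. The log2 difference was -0.39 ± 0.10 for IR+Decursin against SHAM (adjusted p = 0.00559), 0.26 ± 0.10 for IR+Decursin against IR (adjusted p = 0.188) and -0.65 ± 0.10 for IR against SHAM. IR libraries lay below all SHAM libraries, and of the IR+Decursin libraries all but IR+Decursin 6 did.

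Hspa2, a member best known from the male germ line, was the 1 gene that rose in IR+Decursin against SHAM hearts. It had 5.84, 7.03 and 9.04 CPM in IR+Decursin, 5.25, 6.57 and 8.46 CPM in IR, and 3.32, 4.91 and 7.57 CPM in SHAM hearts. The log2 change was 0.56 ± 0.17 for IR+Decursin against SHAM (adjusted p = 0.0197), and 0.45 ± 0.17 for IR against SHAM. SHAM 6 overlapped both other groups, and SHAM 2 and SHAM 5 were the lowest libraries. The call for IR+Decursin ended when the 3 libraries with Xist were left out (adjusted p = 0.0572), and when 1 of them, IR+Decursin 2, was (adjusted p = 0.0530). It also ended when SHAM 2 and SHAM 5 were left out (0.33, adjusted p = 0.152), a direction set by their being the lowest. Over the 27 alternatives its adjusted p ran from 0.00316 to 0.152.

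Hspa8, the constitutive and most abundant HSP70, had 1086, 1287 and 1609 CPM in IR+Decursin, 1165, 1323 and 1839 CPM in IR, and 1185, 1292 and 1889 CPM in SHAM hearts, and the groups overlapped. Hspa12a, a distant HSP70 relative, fell in IR+Decursin against SHAM hearts by 0.35 on the log2 scale (adjusted p = 0.0369). Of the remaining family members, Hspa1l, Hspa12b and Hspa14 had log2 differences of -0.21, -0.09 and -0.18 for IR+Decursin against SHAM, and none was called.

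The nucleotide exchange factors included Hspa4l, an HSP110 protein. It had 53.3, 56.0, 61.4, 52.8, 61.3 and 62.2 CPM in IR+Decursin libraries 1 to 6, 43.4, 45.5, 41.3, 40.5, 48.3 and 57.9 CPM in IR libraries, and 67.4, 101, 69.6, 81.0, 92.2 and 61.5 CPM in SHAM libraries. It was -0.45 ± 0.11 on the log2 scale for IR+Decursin against SHAM (adjusted p = 0.00599), 0.33 ± 0.11 for IR+Decursin against IR (adjusted p = 0.157) and -0.77 ± 0.11 for IR against SHAM. All IR libraries lay below all SHAM libraries, and IR+Decursin 6 reached into the SHAM range. Hspa4, the main HSP110 exchange factor, and Bag3, which couples HSP70 to selective autophagy in muscle, were not called in IR+Decursin hearts, with log2 differences of -0.15 and -0.02 against SHAM.

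Of the J-domain proteins, Dnaja3 delivers clients to mitochondrial HSP70. It had 86.5, 126, 116, 92.4, 142 and 136 CPM in IR+Decursin libraries 1 to 6, 85.1, 79.1, 83.9, 75.4, 97.3 and 78.3 CPM in IR libraries, and 159, 164, 153, 151, 161 and 140 CPM in SHAM libraries. IR libraries lay below all SHAM libraries, and only IR+Decursin 5 reached the SHAM range. The log2 difference was -0.41 ± 0.11 for IR+Decursin against SHAM (adjusted p = 0.00723), 0.49 ± 0.11 for IR+Decursin against IR (adjusted p = 0.0883) and -0.89 ± 0.11 for IR against SHAM.

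Dnaja4, a cytosolic J-domain protein, had 81.9, 94.6 and 124 CPM in IR+Decursin, 62.3, 80.7 and 94.3 CPM in IR, and 109, 124 and 151 CPM in SHAM hearts. It fell by 0.40 in IR+Decursin against SHAM (adjusted p = 0.0100), and its IR against SHAM difference was -0.69 ± 0.11. SHAM 5 and SHAM 2 were its highest libraries, which sets the direction when both are left out, and the call then ended (-0.30, adjusted p = 0.0671). Dnaja2, another cytosolic partner of Hspa8, fell by 0.25 (adjusted p = 0.0298). Its call ended without SHAM 2 and SHAM 5 (adjusted p = 0.0669), although the difference stayed at -0.25. The call also ended without the libraries with Xist (-0.22, adjusted p = 0.0749). Dnajb1, a stress-inducible partner, had 19.3, 21.7 and 31.1 CPM in IR+Decursin, 18.6, 21.5 and 27.3 CPM in IR, and 14.4, 19.2 and 26.2 CPM in SHAM hearts. Dnaja1, another cytosolic partner, had 60.5, 77.3 and 116 CPM in IR+Decursin, 75.6, 81.1 and 130 CPM in IR, and 54.2, 70.7 and 136 CPM in SHAM hearts. Dnajb6, which suppresses aggregation, had 47.2, 49.9 and 53.3 CPM in IR+Decursin, 45.8, 50.9 and 56.2 CPM in IR, and 46.3, 50.5 and 60.0 CPM in SHAM hearts. The groups overlapped for each. None of these 3 was called in either comparison of IR+Decursin hearts, nor were Dnajb4 and Dnajb5.

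**Figure D2:**
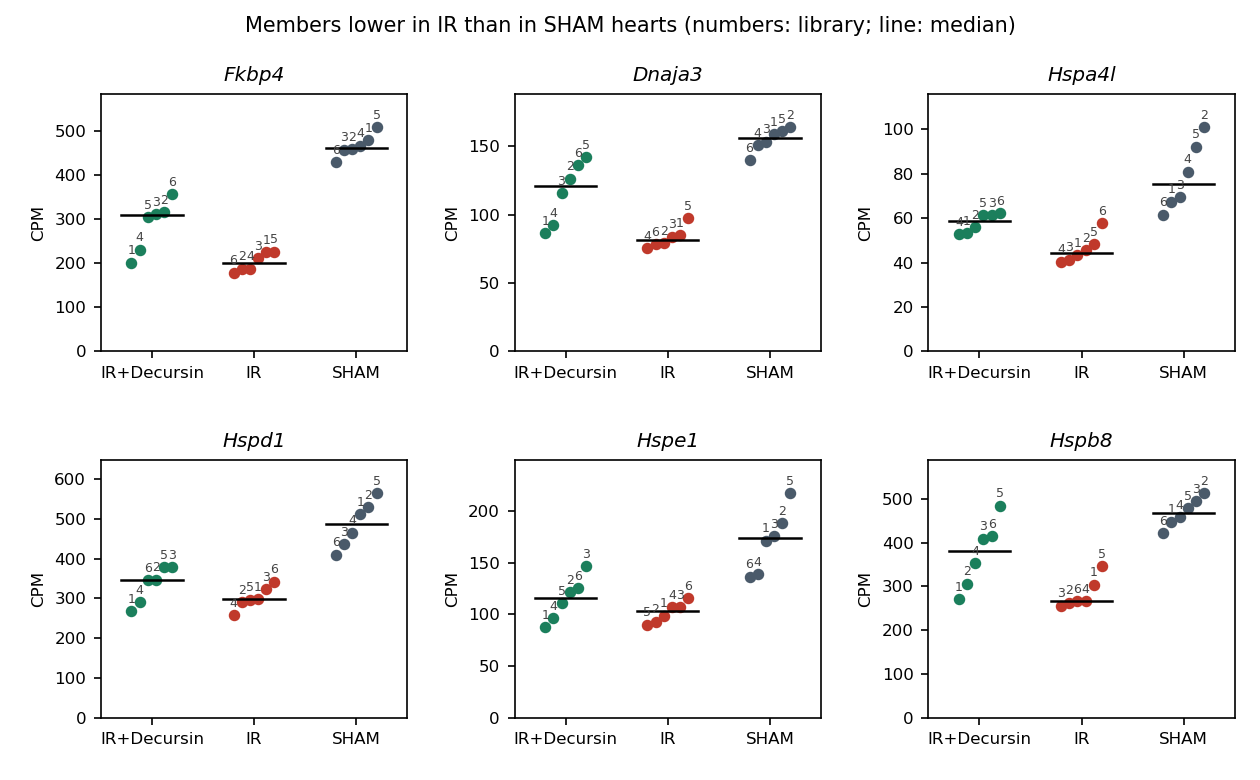
CPM of 6 genes that lay lower in IR than in SHAM hearts, 1 point per library with its number, and the median as a line, with IR+Decursin left of IR and SHAM. The IR points lie below all SHAM points in each panel, and IR+Decursin 1 and 4 are the lowest of their group for Fkbp4, Dnaja3, Hspd1 and Hspe1.

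Small heat shock proteins are rich in heart muscle. Hspb6, which is phosphorylated on beta-adrenergic stimulation in cardiomyocytes, had 393, 537, 602, 424, 968 and 814 CPM in IR+Decursin libraries 1 to 6, 474, 352, 385, 309, 496 and 459 CPM in IR libraries, and 708, 766, 770, 727, 725 and 600 CPM in SHAM libraries. IR libraries lay below all SHAM libraries, and IR+Decursin libraries ran from within the IR range to above the SHAM range. The log2 difference was 0.59 ± 0.18 for IR+Decursin against IR (adjusted p = 0.135), -0.20 ± 0.18 for IR+Decursin against SHAM (adjusted p = 0.433) and -0.80 ± 0.18 for IR against SHAM.

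Hspb8, the partner of Bag3 in chaperone-assisted autophagy, had 271, 381 and 485 CPM in IR+Decursin, 256, 267 and 346 CPM in IR, and 422, 468 and 513 CPM in SHAM hearts. It fell by 0.33 in IR+Decursin against SHAM (adjusted p = 0.0414), a call that ended when the Xist libraries were left out (-0.28, adjusted p = 0.110) and without SHAM 2 and SHAM 5 (-0.31, adjusted p = 0.108, with a range of 0.00948 to 0.402 over the 27 alternatives). The difference to IR was 0.39 ± 0.12 (adjusted p = 0.129). Hspb3, a muscle protein that pairs with Hspb2, had 4.24, 5.95 and 7.47 CPM in IR+Decursin, 3.37, 3.86 and 6.44 CPM in IR, and 6.42, 10.2 and 11 CPM in SHAM hearts. It fell by 0.71 in IR+Decursin against SHAM (adjusted p = 0.00802), and the IR against SHAM difference was -1.08 ± 0.19. Its lowest SHAM library was SHAM 5, which met the range of both other groups. Hspb7, Hspb2 and Hspb1 were not called in IR+Decursin against SHAM hearts, with log2 differences of 0.07, -0.16 and -0.31.

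The mitochondrial chaperonin genes kept their proportion to each other. Hspd1, which encodes HSP60, had 268, 346 and 379 CPM in IR+Decursin, 258, 298 and 342 CPM in IR, and 410, 488 and 564 CPM in SHAM hearts. Hspe1, which encodes the HSP10 lid, had 87.2, 116 and 147 CPM in IR+Decursin, 89.8, 103 and 115 CPM in IR, and 136, 173 and 217 CPM in SHAM hearts. For both genes IR libraries lay below all SHAM libraries, and among IR+Decursin libraries only IR+Decursin 3, for Hspe1, reached the SHAM range.

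Hspd1 fell by 0.54 and Hspe1 by 0.58 in IR+Decursin against SHAM (adjusted p = 0.00109 and 0.00211). Their IR against SHAM differences were -0.69 ± 0.10 and -0.75 ± 0.12. Against IR hearts, the IR+Decursin differences were 0.15 ± 0.10 and 0.17 ± 0.12 (adjusted p = 0.447 and 0.472). The FPKM ratio of Hspd1 over Hspe1 had a median of 0.873 in IR+Decursin hearts (0.768 to 1.01). It was 0.898 in IR (0.717 to 0.982) and 0.860 in SHAM hearts (0.738 to 0.994). Whether the promoter stretch printed above, which the pair shares, has a part in this ratio was not tested. The heat shock factor genes Hsf1 and Hsf2 had log2 differences of -0.21 and -0.15 in IR+Decursin against SHAM (adjusted p = 0.188 and 0.179).

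**Figure D3:**
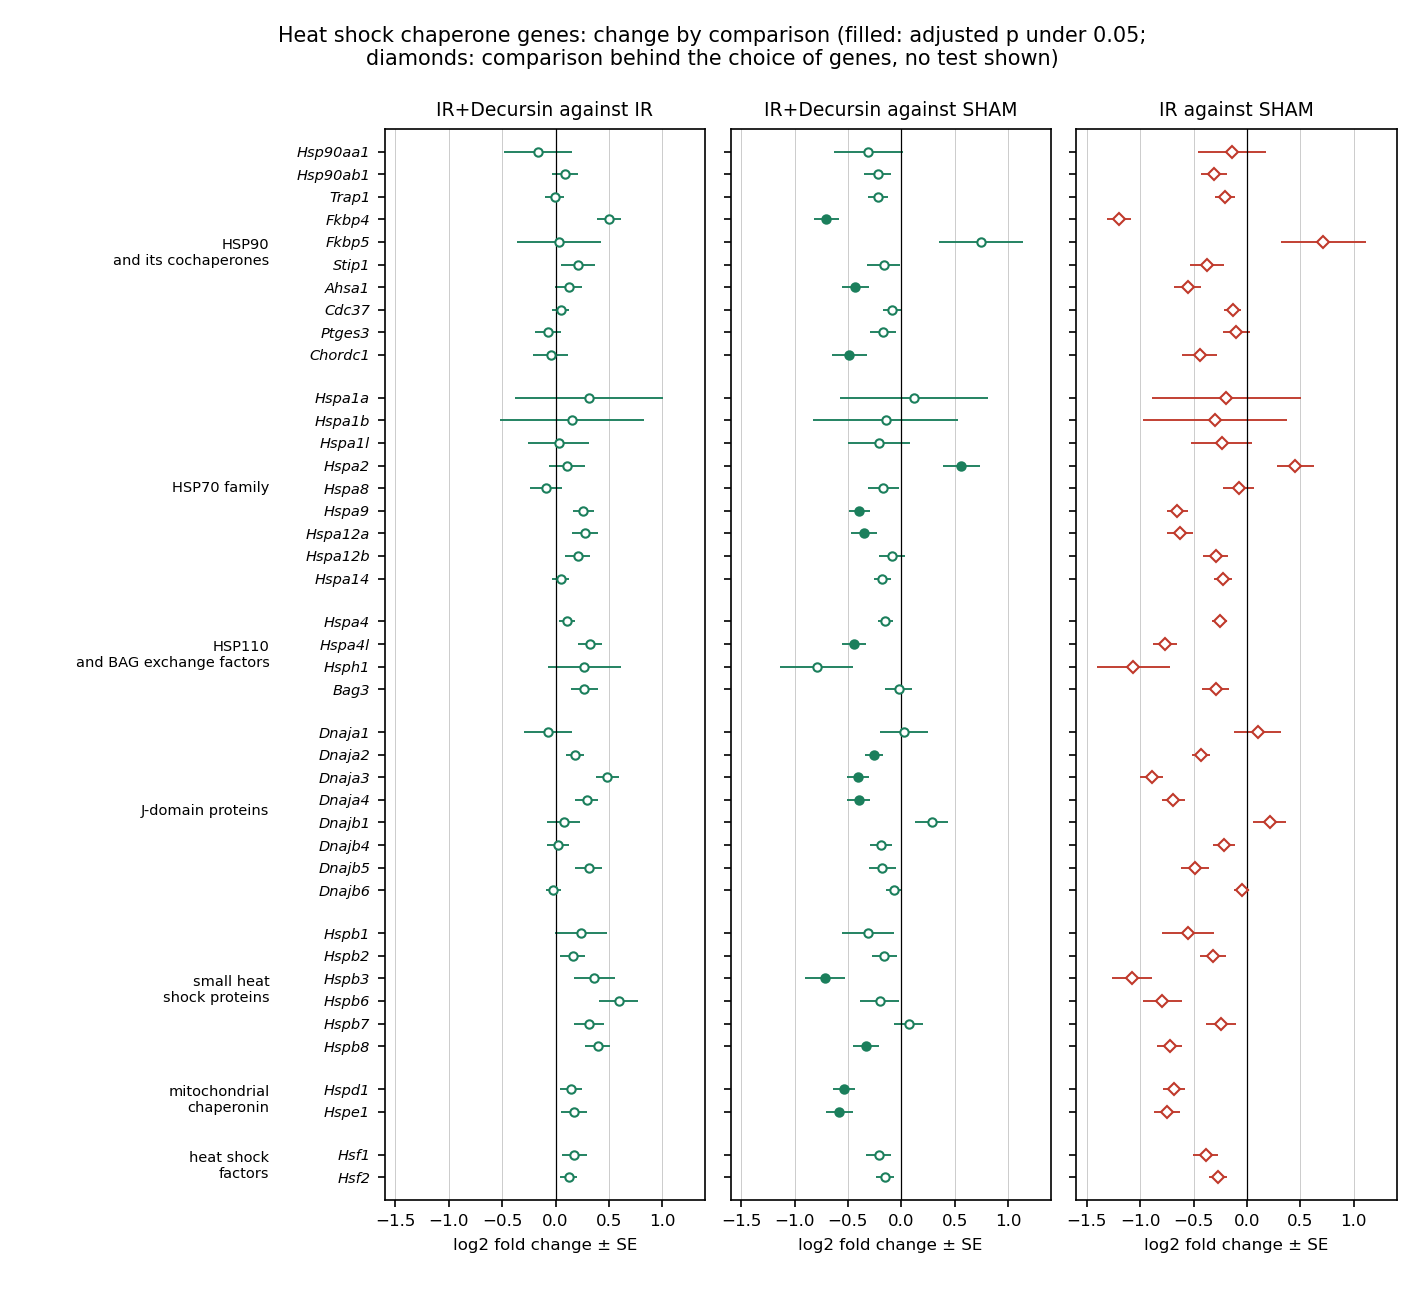
Log2 fold change ± SE of the 41 genes by role in IR+Decursin against IR (left), IR+Decursin against SHAM (middle) and IR against SHAM (right). Filled points passed an adjusted p of 0.05, and diamonds mark the comparison behind the choice of the genes, with no test shown. In the left panel 34 genes lie above 0 and none is filled; in the middle panel 14 are filled, all but Hspa2 below 0.

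Counted over all members, IR+Decursin against SHAM had 13 genes lower and 1 higher of 41. Of all genes tested, 11.8% were lower and 17.5% were higher in that comparison, and of the members 31.7% and 2.44%. Because the same SHAM libraries entered the choice of the genes, the member counts are a description. By role, the calls below SHAM were 3 of 10 HSP90 genes, 2 of 9 HSP70 genes, 1 of 4 exchange factors, 3 of 8 J-domain proteins, 2 of 6 small heat shock proteins and both chaperonin genes. The members' median log2 difference was -0.20, against -0.00 over all genes. For 2 members, Fkbp4 and Hspd1, every IR+Decursin library was below every SHAM library, and 2.9% of all genes were so placed. Of the 14 calls, 9 passed whichever single library was left out, and the exceptions were Chordc1, Dnaja2, Hspa2, Hspa12a and Hspb8. Chordc1 was lost without SHAM 2 or 5 or IR+Decursin 2, 4, 5 or 6, Dnaja2 without SHAM 1, 2 or 4 or IR+Decursin 1, 2 or 3, and Hspa2 without IR+Decursin 2. Hspa12a was lost without SHAM 1, 4 or 5 or IR+Decursin 1, 3, 4 or 5, and Hspb8 without any 1 of SHAM 1 to 5 or IR+Decursin 1, 2 or 4. Without SHAM 2 and SHAM 5 together 8 of the 14 passed. Scaling to the total count in place of TMM shifted the median gene by 0.22 upward in this comparison, by 0.31 in IR against SHAM and by -0.08 in IR+Decursin against IR. Under it the lower calls for IR+Decursin were 5, namely Fkbp4, Hspa9, Hspb3, Hspd1 and Hspe1, and the higher calls were Hspa2 and Dnajb1. All genes then split into 4781 higher and 377 lower calls, compared with 2647 and 1774 under TMM.

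For IR+Decursin against IR no member was called, and neither was any gene of the table with edgeR, although 2712 genes had an unadjusted p under 0.05. At that unadjusted level 12 of 41 members were higher and 0 lower, where 10.1% of all genes were higher and 7.87% lower. Means of 34 of 41 members lay above IR, against 47% of all genes, a share that was 27 of 41 under total-count scaling. The genes were listed with the p values of IR against SHAM known, and the same IR libraries enter here. Genes picked for low values in these libraries would tend to lie above them in any other group. The member counts are therefore a description. The median log2 difference was 0.16 for members and -0.02 for all genes. DESeq2 called 470 genes in this comparison, 374 higher and 96 lower, and 4 members were among the higher ones: Fkbp4 (adjusted p = 0.00529), Dnaja3 (0.00489), Hspb6 (0.0331) and Hspb8 (0.0342). The same 4 were called by edgeR when IR+Decursin 1 was left out, with adjusted p of 0.00893 for Fkbp4 and Dnaja3, 0.0269 for Hspb6 and 0.0208 for Hspb8. That setting called 696 genes higher and 280 lower of the 15207 tested in it. It was the only 1 of the 18 fits without a single library that called these 4 members. IR+Decursin 1 was the lowest of its group for each of the 4, which sets the direction of the change. These calls are therefore no separate support. Over the 27 alternatives the adjusted p ran up to 0.473 for Fkbp4 and Dnaja3, 0.559 for Hspb6 and 0.531 for Hspb8. IR+Decursin 1 had the lowest cardiomyocyte sum of its group (57117 CPM) and the highest fibroblast, macrophage and proliferation sums, and it was the lowest of its group for 17 members. IR+Decursin 1 and 4 were the 2 lowest of their group both for Fkbp4 and for the cardiomyocyte sum, and IR+Decursin 6 was the highest for both. The part of cell make-up in the difference was not tested. Without the 3 libraries with Xist, the differences to IR were 0.46 for Fkbp4 and 0.43 for Dnaja3 (adjusted p = 0.473 for both).

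In IR against SHAM, which was used in choosing the genes, 23 members were lower and 1 higher past the adjusted p of 0.05, beside 21.7% of all genes lower and 25.3% higher. Nothing is read from these counts. Both this comparison and that of IR+Decursin use the same SHAM libraries, and IR+Decursin against IR shares its IR libraries with it. A list drawn up with its p values known can therefore lean the same way in those comparisons. For 12 members every IR library was below every SHAM library, beside 11.6% of all genes. The members' median was -0.31 and that of all genes -0.00, and 4 members lay above 0, beside 49.9% of all genes. Under total-count scaling 22 rather than 37 members lay below 0. There Fkbp4 was at -0.90, Dnaja3 at -0.59, Hspd1 at -0.38 and Hspe1 at -0.44, and 15 members moved to above 0, among them Hspa4, Hspa12b, Hspa14 and Hsf2, which had been past the threshold below 0 under TMM. The members nearest to SHAM were Dnaja1, Dnajb6, Hspa8 and Ptges3, with log2 differences of 0.10, -0.05, -0.08 and -0.10.

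The inducible genes ranged widely within each group. Hsp90aa1, the inducible HSP90, had 229, 143, 244, 140, 136 and 125 CPM in IR+Decursin libraries 1 to 6, 162, 154, 179, 167, 178 and 298 CPM in IR libraries, and 111, 331, 129, 141, 412 and 135 CPM in SHAM libraries. Hsph1, the inducible HSP110, had 57.4, 54.4, 85.1, 41.5, 45.4 and 38.4 CPM in IR+Decursin, 35.7, 32.6, 36.6, 37.0, 48.9 and 76.3 CPM in IR, and 56.8, 143, 61.0, 61.6, 189 and 48.1 CPM in SHAM libraries. For both genes SHAM 5 and SHAM 2 were the highest of all 18 libraries, IR 6 was the highest IR library and IR+Decursin 3 the highest IR+Decursin library.

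Hspa1a had 2.02, 4.33 and 8.30 CPM as lowest, median and highest in IR+Decursin, 1.47, 3.28 and 6.25 CPM in IR, and 0.544, 1.52 and 17.9 CPM in SHAM hearts. Hspa1b had 2.72, 5.70 and 14.8 CPM in IR+Decursin, 4.01, 5.70 and 10.2 CPM in IR, and 1.36, 2.46 and 32.5 CPM in SHAM hearts. In both cases SHAM 5 held the highest level of all libraries, and SHAM 2 was the next SHAM library with 3.50 CPM of Hspa1a and 4.27 CPM of Hspa1b. The 2 genes together had 1550 counts in SHAM 5, against 49 to 213 counts in the other SHAM libraries. Hspa1a made up 35.5% of that sum in SHAM 5, and 27.8 to 47.2% in the other SHAM libraries.

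**Figure D4:**
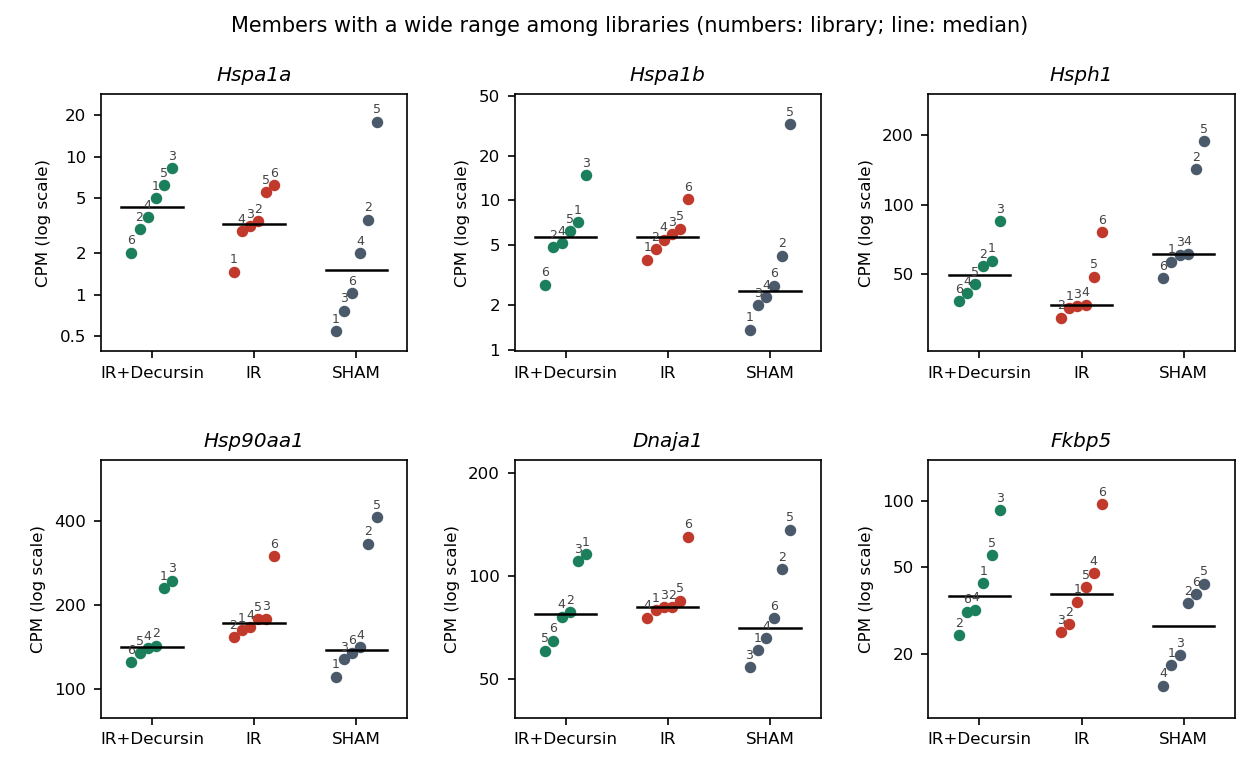
CPM on a log scale of 6 genes with a wide range among libraries, 1 point per library with its number, and the median as a line, with IR+Decursin left of IR and SHAM. SHAM 5 is the highest SHAM library in every panel, IR 6 the highest IR library, and IR+Decursin 3 the highest of its group in 5 of the 6 panels, the exception being Dnaja1.

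A library was taken as high for a gene when it lay at least 0.5 above its own group's median on the log2 scale. SHAM 5 was high for 12 members and SHAM 2 for 9, beside 3.02% and 2.64% of all genes tested. IR 6 was high for 8 members and IR+Decursin 3 for 8, beside 5.26% and 2.26% of all genes. The other 14 libraries were high for at most 4 members. Hsp90aa1, Hspa1a, Hspa1b, Hsph1 and Dnaja1 were high in all 4 of these libraries. SHAM 2 and SHAM 5 were the 2 highest SHAM libraries for 22 of 41 members (53.7%) and for 1639 of 15088 genes tested (10.9%). The 6 neutrophil markers summed to 54.6 CPM in SHAM 5 and 35.9 CPM in SHAM 2, and to 1.72 to 4.78 CPM in the other 4 SHAM libraries. IR 6 and IR+Decursin 3 did not stand out in this way. The sum was 76.4 CPM in IR 6, where IR libraries ran from 25.9 to 200 CPM. It was 58.0 CPM in IR+Decursin 3, where that group ran from 3.66 to 95.9 CPM. Cardiomyocyte sums were 94062 CPM in SHAM 5 and 97921 CPM in SHAM 2, inside the range of the other SHAM libraries. Their part in the result was not tested.

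**Figure D5:**
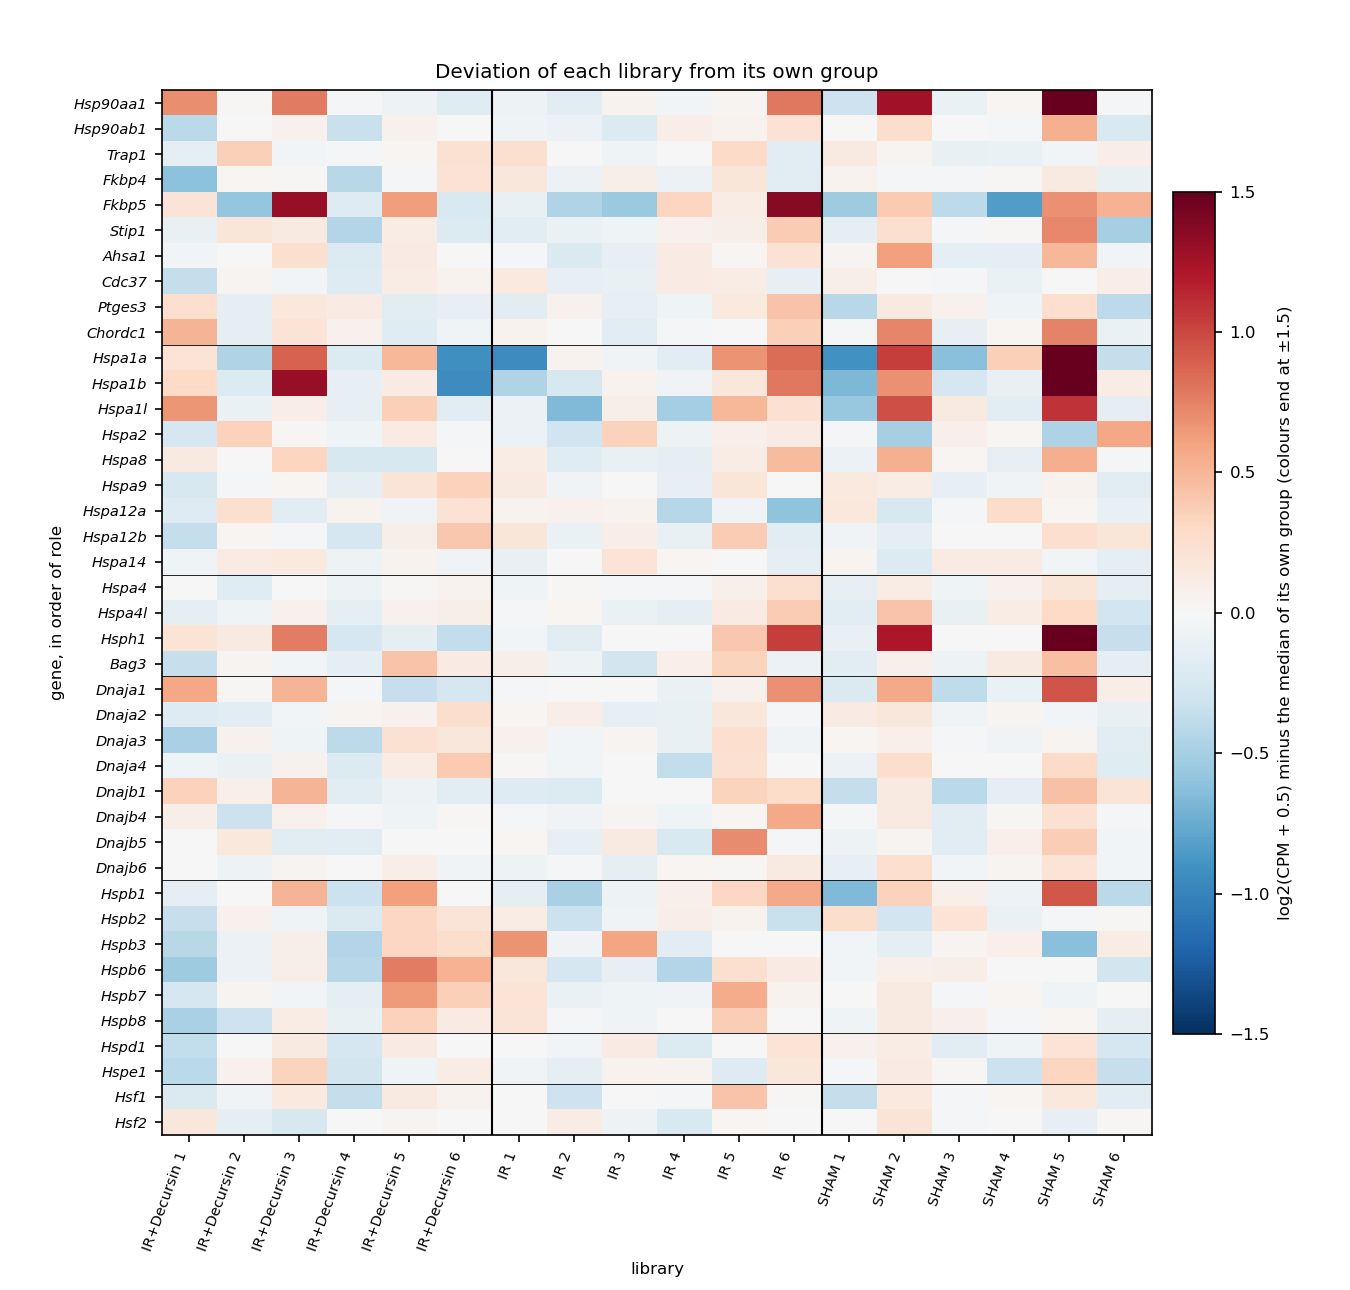
Deviation of each library (columns) from the median of its own group, on the log2(CPM + 0.5) scale, for the 41 genes in order of role (rows), with IR+Decursin left, IR in the middle and SHAM right. Red marks libraries above their group; SHAM 5, SHAM 2, IR 6 and IR+Decursin 3 are red for Hsp90aa1, Hspa1a, Hspa1b, Hsph1 and Dnaja1.

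Results for inducible genes turned on these SHAM libraries. With all libraries, IR+Decursin against SHAM gave log2 differences of 0.12 ± 0.70 for Hspa1a and -0.15 ± 0.68 for Hspa1b. Without SHAM 2 and SHAM 5 the differences were 2.08 and 1.69, and without SHAM 5 alone 1.58 and 1.44. These settings are singled out because the libraries were the highest SHAM libraries for these genes, which sets the direction, so the values are a description with no test. For IR against SHAM the differences were -0.19 and -0.30 with all libraries, and 1.76 and 1.53 without these SHAM libraries. In IR+Decursin against SHAM, Hsph1 was at -0.79 with all libraries and at -0.10 without SHAM 2 and SHAM 5, and in IR against SHAM at -1.07 and at -0.38. Hsp90aa1 was at -0.31 with all libraries and at 0.37 without them in IR+Decursin against SHAM, and at -0.15 and at 0.52 in IR against SHAM. Fkbp4 was at -0.70 in IR+Decursin and -1.20 in IR, both with and without these SHAM libraries.

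Other genes of protein folding were counted in the same fit. Of 44 further folding and degradation partners, 43 were tested, Hsf5 being too low. In IR+Decursin against SHAM 16 of the 43 were lower and 0 higher, where 11.8% of all genes were lower and 17.5% higher, with a median of -0.16, and against IR 0 were called, with a median of 0.06. IR against SHAM had 22 lower and 2 higher, beside 21.7% and 25.3% of all genes, with a median of -0.24. The lowest there were Grpel1, the exchange factor of mitochondrial HSP70, at -0.77, and Unc45b, the myosin chaperone, at -0.74. In IR+Decursin against SHAM these fell by 0.44 (adjusted p = 0.00352) and by 0.62 (adjusted p = 0.00314). The highest were Tor1a, an ATPase of the endoplasmic reticulum, at 0.42, and the heat shock factor gene Hsf4 at 0.35.

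Of 14 genes of the cytosolic chaperonin CCT and of prefoldin, which hands it actin and tubulin, 7 were lower and 0 higher in IR+Decursin than in SHAM hearts (median -0.24), beside the same 11.8% and 17.5% of all genes, and 0 were called against IR (median -0.07). IR against SHAM had 5 lower and 0 higher (median -0.15), beside 21.7% and 25.3% of all genes. Pfdn1 at -0.42 and Pfdn6 at -0.37 were lowest there, and Cct2 at 0.00 and Cct5 at -0.03 highest. Pfdn1 and Pfdn6 fell by 0.38 and by 0.40 in IR+Decursin against SHAM (adjusted p = 0.00317 and 0.00172).

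Because Fkbp5 responds to glucocorticoids, 16 genes known to do so were listed. In IR+Decursin against SHAM 1 was lower and 0 higher, where 11.8% of all genes were lower and 17.5% higher, and against IR 0 were called. In IR against SHAM 1 was higher and 1 lower, beside 25.3% and 21.7% of all genes. Mt2, a metallothionein, at 1.74 and Fkbp5 at 0.72 were highest there, and Klf9 at -0.64 and Tsc22d3 at -0.50 lowest. IR 6, where Fkbp5 was highest, was the highest IR library for 11 of the 16 genes, Fkbp5 included, and for 21.9% of all genes. IR+Decursin 3, the other library that stood out for Fkbp5, was the highest of its group for 5 of the 16 and for 9.83% of all genes. SHAM 5 was the highest SHAM library for 4 and SHAM 6 for 7, and for 18.7% and 14.7% of all genes.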

How the data were processed

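Heart RNA of 18 mice was sequenced, with 1 library per animal and 6 per group. The labels gave each library's group, number and batch. Raw counts for each gene symbol were deposited by the authors. The submitters' processing notes name fastp, HISAT2, HTSeq and the build GRCm39. Not given in the sources used here were tool versions, annotation, strand setting and the handling of multiply matching reads. The FPKM values deposited by the authors equal the counts divided by gene length and library total, with a largest relative deviation of 1.58e-09.

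The test was the two-sided quasi-likelihood F-test of edgeR (4.0.16, under R 4.3.3). Low genes were removed with filterByExpr, TMM factors scaled the libraries, and the 18 libraries shared 1 robust fit of 3 group means with 15 residual degrees of freedom. Benjamini-Hochberg adjustment covered 15088 genes, and genes under 0.05 were called. The script was tested on simulated data. Levels are CPM with TMM factors. Same-numbered animals of different groups were not treated as pairs, since nothing in the labels pairs them.

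The members and all lists were chosen with earlier results of these data known. The lowest, median and highest library of each group, or all 6, are given for Fkbp4 and for the members with the 10 largest and 10 smallest log2 fold changes in IR against SHAM. Of each other folding list, the 2 highest and 2 lowest there are named. Other members are named where a test called them, or after their values were seen. Alternatives were DESeq2 1.42.0, RLE factors, total-count scaling, no low-count filter, a filter of 1 CPM in 6 libraries, the replicate block, fits of the compared groups alone, leaving out the libraries with over 1000 Xist counts, leaving out each library in turn, and, added after seeing the data, leaving out SHAM 2 and SHAM 5 together. Promoter sequences are from RefSeq, build GRCm38.p6.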

Additional observations from a re-analysis of the deposited data

Results flagged for a closer look

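Within groups of 6 libraries, 11 of the 123 gene and group combinations had a highest or lowest library set apart from the nearest other library by a gap, as a share of the group's range, above Dixon's critical value for 6 samples. At this limit chance sets apart about 1 group in 20. In IR 6, 6 genes stood above the other IR libraries. Dnajb4 had a gap of 0.848 of the range (168 CPM, next 117 CPM), Dnaja1 of 0.834 (130 CPM, next 84.7 CPM) and Hsp90aa1 of 0.827 (298 CPM, next 179 CPM). Fkbp5 had a gap of 0.700 (97.0 CPM, next 46.7 CPM), Chordc1 of 0.650 (45.4 CPM, next 36.5 CPM) and Hsph1 of 0.627 (76.3 CPM, next 48.9 CPM). SHAM 5 stood above the other SHAM libraries for Hspa1b with a gap of 0.907 (32.5 CPM, next 4.27 CPM) and for Hspa1a with 0.830 (17.9 CPM, next 3.50 CPM). Hspb6 was low in SHAM 6 with a gap of 0.639 (600 CPM, next 708 CPM). Hspa1b was high in IR+Decursin 3 with a gap of 0.634 (14.8 CPM, next 7.13 CPM), and Dnajb5 was high in IR 5 with 0.684 (77.8 CPM, next 52.1 CPM). The causes were not tested.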

How the results depend on the processing

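The counts of called members kept their direction and stayed within 1.5 times of the reported count with RLE factors, no low-count filter, the filter of 1 CPM in 6 libraries and the replicate block. Under total-count scaling, IR+Decursin against SHAM had 5 lower and 2 higher calls, and IR against SHAM had 11 lower and 4 higher, where all genes split into 7012 higher and 1056 lower calls, compared with 3810 and 3269 under TMM. In IR against SHAM 15 members then turned to above 0, among them Hspa4 (0.048), Hspa12b (0.0068), Hspa14 (0.084) and Hsf2 (0.034), which had been past the threshold. With DESeq2, IR+Decursin against IR had 4 higher calls. Without the libraries with Xist there were 0 higher calls in both comparisons with SHAM, and in fits of the compared groups alone 0 for IR against SHAM. Without SHAM 2 and SHAM 5, chosen after seeing that they were highest for many members, which sets the direction for these, there were 2 higher calls in each comparison with SHAM, and Hspa1b turned to 1.69 in IR+Decursin against SHAM (-0.53 to 1.44 when single libraries were left out, the highest without SHAM 5). Leaving out each library in turn gave 10 to 13 lower and 0 to 3 higher calls for IR+Decursin against SHAM (0 without IR+Decursin 2, 3 without SHAM 5). It gave 0 to 4 higher and 0 lower for IR+Decursin against IR, and 19 to 24 lower and 0 to 2 higher for IR against SHAM. The 0 came without SHAM 1, 2 or 4 or IR 1, 3, 5 or 6, and the 2 without SHAM 5. With the replicate number as a block there were 10 lower and 1 higher for IR+Decursin against SHAM, 0 and 0 against IR, and 21 lower and 1 higher for IR against SHAM, and over all genes 1488 lower and 2385 higher, 0 and 0, and 3124 lower and 3591 higher. Same-numbered libraries correlated in their deviations by -0.52 to 0.41, and each correlated best with its own number in 0 to 2 of 6 cases, so the pairing is not one the data show. The causes were not tested. At this depth members with a few CPM, such as Hspa1a with at least 0.544 CPM, are counted least precisely.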
